A study of Mus musculus with 4 samples.

Results

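The NFkB system was followed through 40 genes, given by name, that encode its subunits, its inhibitors, the adaptors and kinases that switch it on and several of its feedback genes. All 40 were found among the 32285 genes of the RNA matrices, and each also had at least 1 peak of open chromatin within 2 kb of its start sites. By role they comprised 5 subunits (Nfkb1, Nfkb2, Rel, Rela, Relb), 6 proteins of the IkB family (Nfkbia, Nfkbib, Nfkbid, Nfkbie, Nfkbiz, Bcl3), 5 genes of ubiquitin editing (Tnfaip3, Tnip1, Tnip2, Tnip3, Cyld), 6 TRAF and IAP proteins (Traf1, Traf2, Traf3, Traf6, Birc2, Birc3) and 8 kinases (Map3k8, Map3k14, Ikbkb, Chuk, Ikbke, Tbk1, Ripk1, Ripk2). The others were 3 CARD-linked adaptors (Malt1, Bcl10, Card9), 2 survival genes (Cflar, Bcl2a1b), 4 genes of the MyD88 and IRAK group (Myd88, Irak2, Irak3, Irak4) and Mir155hg, the host transcript of miR-155.

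Livers came from C57BL/6J mice kept on chow with 0.1% DDC (3,5-diethoxycarbonyl-1,4-dihydrocollidine, a porphyrinogenic agent used to injure the bile ducts) for 5 days (D5) or for 0 days (D0, the control). Both groups were sorted the same way for living CD45+ CD64- CD11c+ cells, a gate for dendritic cells that also lets other CD11c+ cells through, and nuclei of the sorted cells entered 10x Multiome, which reads RNA and open chromatin of the same nucleus. Male mice of 6 to 12 weeks were used per the methods of the study, and the number pooled into a library was not given in the sources used here. RNA and ATAC were deposited as separate samples, 4 in all, from 2 libraries. Neither day has a replicate, the day and the library cannot be told apart, and no p-value is given. Intervals are 95% and cover counting error only.

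NFkB is a family of dimeric transcription factors that are held inactive in the cytosol by IkB proteins. In the canonical pathway, receptors such as those for TNF, IL-1 and microbial products act through TRAF and RIP proteins on the IKK kinases, IkB is degraded, and dimers of p50 (from Nfkb1) with RelA or c-Rel enter the nucleus, where they induce IkBα (Nfkbia) and A20 (Tnfaip3), which shut the pathway down again. In the noncanonical pathway, NIK (Map3k14) is freed from TRAF3 and cIAP proteins and the p100 precursor (Nfkb2) is processed so that RelB dimers form, a route known from dendritic cell maturation.

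Several of the feedback genes carry the sites that NFkB itself recognises, and these sequences are shown first because Tnip3, Tnfaip3 and Nfkbia were among the members with the largest differences between preDC-like and Clec10a+ cDC2-like nuclei, 2 groups described further on, while Rel differed less there and the log2 ratio of Nfkb2 at D5 was -0.03. The 10-base kappaB consensus was searched on both strands of the promoters of RefSeq (GRCm38.p6), from 250 bases before to 50 bases after a start site, with overlapping matches counted separately. Of the 40 members, 33 had a promoter in that table and 12 of these (36.4%) held the consensus at least once, namely Bcl10, Tnip3, Bcl3, Nfkbid, Cyld, Tnfaip3, Rel, Tnip1, Nfkbia, Traf3, Nfkbie and Nfkb2. The same search found it in 1388 of 27025 genes (5.14%). A match is a run of letters and not an occupied site. Below are the 250 bases before the start site of 5 members, 5′ to 3′ on the strand of the gene, with the matches in capitals. In each of these windows the printed bases lay inside a peak that both libraries shared.
Nfkbia, chr12:55492648-55492897, minus strand: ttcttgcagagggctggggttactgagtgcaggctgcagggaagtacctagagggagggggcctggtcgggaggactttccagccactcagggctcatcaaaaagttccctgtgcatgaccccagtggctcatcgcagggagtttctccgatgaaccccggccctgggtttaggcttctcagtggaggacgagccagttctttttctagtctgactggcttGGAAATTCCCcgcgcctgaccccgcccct
Tnfaip3, chr10:19015411-19015660, minus strand: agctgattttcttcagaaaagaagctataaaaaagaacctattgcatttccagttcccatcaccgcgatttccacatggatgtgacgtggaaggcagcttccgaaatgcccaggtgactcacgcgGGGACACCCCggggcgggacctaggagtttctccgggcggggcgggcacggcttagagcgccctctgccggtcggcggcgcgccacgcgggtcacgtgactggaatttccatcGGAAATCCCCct
Tnip3, chr6:65590148-65590397, plus strand: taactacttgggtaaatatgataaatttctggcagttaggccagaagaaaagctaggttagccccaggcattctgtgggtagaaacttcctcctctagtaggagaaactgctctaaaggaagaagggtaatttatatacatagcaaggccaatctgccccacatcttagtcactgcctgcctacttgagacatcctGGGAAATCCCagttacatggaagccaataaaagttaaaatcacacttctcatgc
Rel, chr11:23770970-23771219, minus strand: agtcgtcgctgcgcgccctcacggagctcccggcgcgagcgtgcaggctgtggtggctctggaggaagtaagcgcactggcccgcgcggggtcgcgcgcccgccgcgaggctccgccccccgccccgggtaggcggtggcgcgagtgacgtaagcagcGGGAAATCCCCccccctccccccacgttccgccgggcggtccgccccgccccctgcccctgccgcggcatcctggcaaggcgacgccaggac
Nfkb2, chr19:46304487-46304736, plus strand: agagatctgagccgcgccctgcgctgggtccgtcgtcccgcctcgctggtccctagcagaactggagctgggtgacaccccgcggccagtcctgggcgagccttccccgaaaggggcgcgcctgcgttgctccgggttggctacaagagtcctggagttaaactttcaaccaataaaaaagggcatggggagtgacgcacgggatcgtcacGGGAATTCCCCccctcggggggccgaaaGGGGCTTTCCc
The match of Nfkbia began 29 bases before its start site, the 2 of Tnfaip3 125 and 12 bases before it, and the match of Tnip3, which fits the consensus on both strands, 54 bases before it. No entry was found in the promoter table for Map3k8, Relb, Malt1, Nfkbiz, Ripk2, Nfkb1 and Ikbkb.

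Nuclei were grouped into classes by marker genes after clustering without the 40 members, and class names end in "-like" because they rest on markers alone. Nuclei named as or placed with conventional type 2 dendritic cells (cDC2) fell into a Clec10a+ group (998 nuclei at D0 and 2782 at D5), a preDC-like group (240 and 1659) and another group (714 and 2044), and their pool is called cDC2-like (1952 and 6485). Clusters 3, 9 and 13, given further on, had cDC2 as their best-scoring class, with 2, 2 and 5 of 10 markers raised. Cluster 9 raised 2 macrophage markers too. These clusters stayed unnamed and outside the pool, so it may leave out part of the cDC2. The other classes compared were cDC1-like (1527 and 2704), Ccr7+ DC-like (310 and 1078), plasmacytoid or pDC-like (2318 and 1961), NK cell-like (1416 and 1054), T cell-like (353 and 436), macrophage-like (228 and 544) and nonclassical monocyte-like nuclei (121 and 226). The NK cell-like class was named from a joint list of NK and ILC1 markers, so it may hold ILC1 as well. It raised 7 of the 8, all but Eomes, and 2 of 10 T cell markers (Cd3g, Trbc2). The preDC-like group raised 4 of 7 preDC markers at least 2-fold over all nuclei (Cd7, Ly6c2, Tcf4, Gria3) and only 1 of 10 cDC2 markers (Irf4), fewer than the 2 classical monocyte markers it raised, so its place in the pool rests on the preDC markers and is uncertain. Both pDC-like clusters raised 5 of the 7 preDC markers, Ly6c2, Tcf4 and Gria3 among them, so these markers are not particular to the group. Of the 10 pDC markers the group raised 2 and those clusters all 10. The Clec10a+ group and the other cDC2-like group both raised Clec10a, Mgl2 and Cd209a over all nuclei. The first was called Clec10a+ because these 3 of 5 markers were also raised in it, by a lower limit, over the rest of the pool. Among the 10 leading genes of the Clec10a+ group were the members Tnip3, Nfkbia and Mir155hg, although no member had been used to form it. Of the 10 leading genes of the other cDC2-like group, 1 was the heat shock gene Hspa1a. The RNA layers held 44496348 UMIs (unique molecular identifiers) in 16260 barcodes at D0 and 94374499 in 27873 at D5, and 591 barcodes occurred in both libraries. Levels are given as CPM, the UMIs of a gene scaled to all UMIs of the class.

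**Figure D1:**
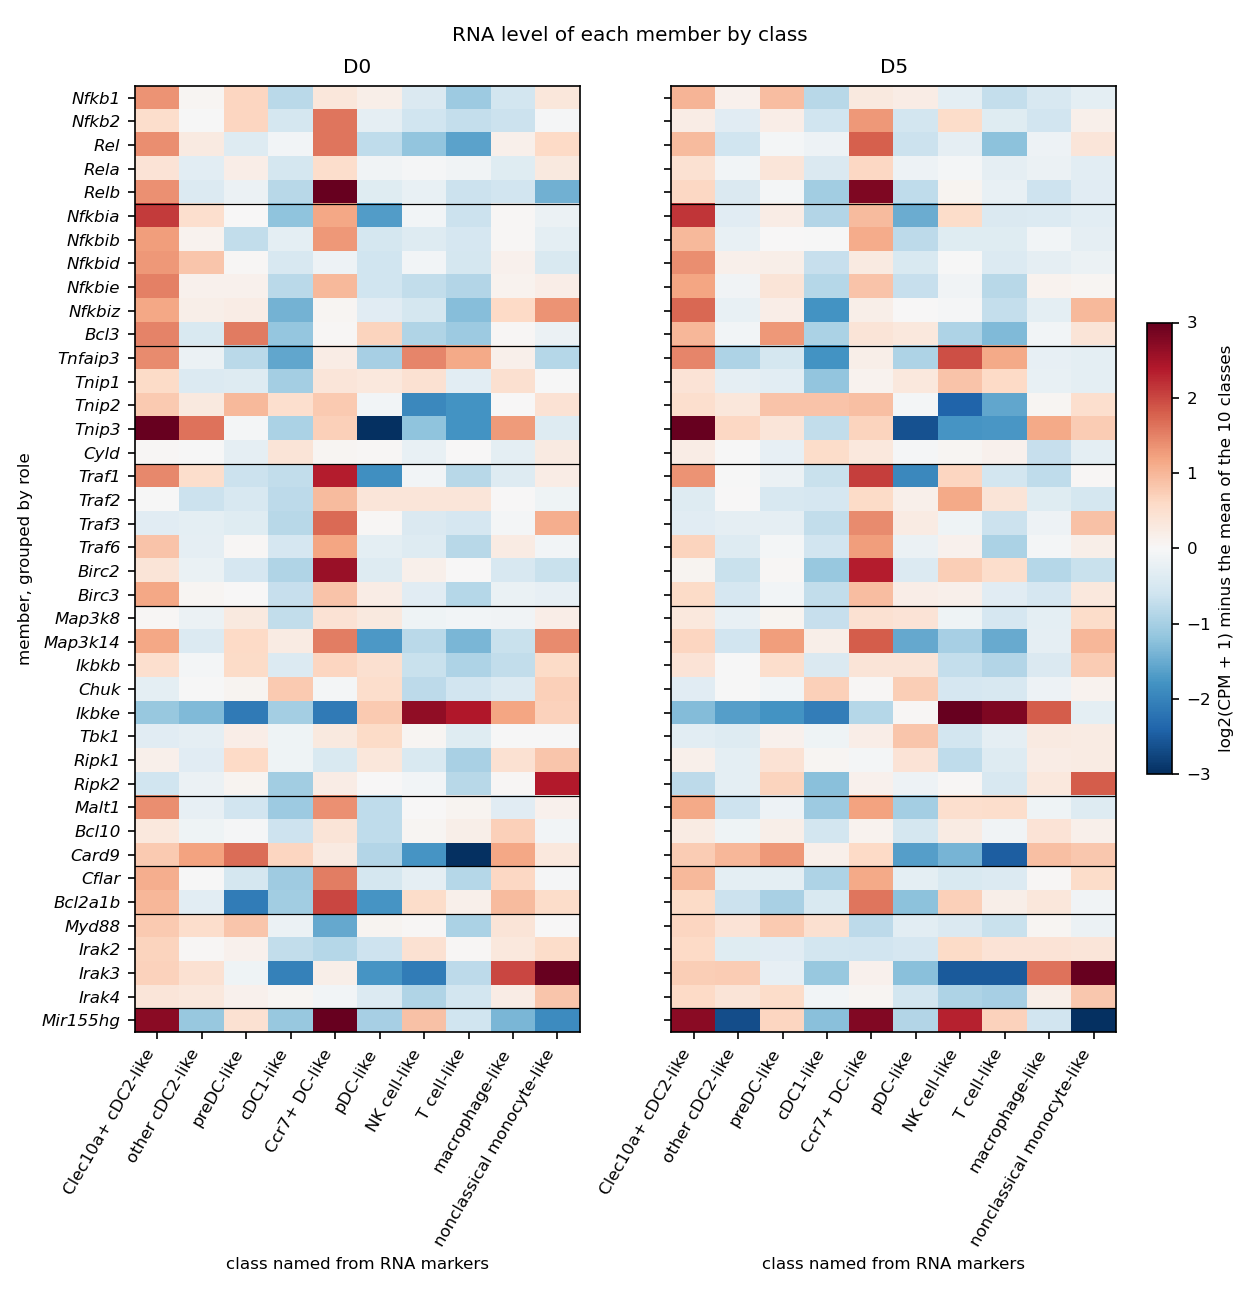
Levels of the 40 members (rows, grouped by role) in 10 classes of nuclei at D0 and D5 (columns), with colour giving log2(CPM + 1) minus the mean of the 10 classes on that day, so that colours compare classes within a gene and not genes with each other. The Ccr7+ DC-like column holds the highest value of 13 of 40 members on both days and the Clec10a+ cDC2-like column that of 6.

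More members had their highest level in Ccr7+ DC-like nuclei, the mature migratory state, than in any other class, and Clec10a+ cDC2-like nuclei came next. Highest and lowest are meant among the 10 named classes. The class with the highest level was the same at D0 and D5 for 30 of 40 members, against 53.2% of the 9811 genes with at least 100 UMIs on each day. It was Ccr7+ DC-like for 13 members and Clec10a+ cDC2-like for 6, where 5.43% and 1.40% of all those genes were highest on both days. For 13 members the interval of the highest class lay above that of the next class on both days, 7 of them in Ccr7+ DC-like and 5 in Clec10a+ cDC2-like nuclei, where this held for 13.5% of all those genes, 2.39% in Ccr7+ DC-like and 0.561% in Clec10a+ cDC2-like nuclei.

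Among the subunits, Nfkb1, which encodes p105 and p50, was highest in Clec10a+ cDC2-like nuclei, with 1597 CPM at D0 (interval 1543 to 1652) and 1266 at D5 (1242 to 1291). preDC-like nuclei came next with 976 and 1196 CPM, and the lowest levels were 295 CPM in T cell-like nuclei at D0 and 355 CPM in cDC1-like nuclei at D5. The other 4 subunits were highest in Ccr7+ DC-like nuclei on both days. Relb stood furthest apart, with 847 CPM at D0 (780 to 919) and 658 at D5 (629 to 687), while the next class, Clec10a+ cDC2-like, had 219 and 142 CPM. Rel, the c-Rel subunit, reached 2746 CPM at D0 and 2582 at D5 in Ccr7+ DC-like nuclei and 2408 and 1444 in Clec10a+ cDC2-like nuclei, and its lowest class was T cell-like on both days with 297 and 321 CPM. Nfkb2 reached 173 and 165 CPM in Ccr7+ DC-like nuclei. Rela varied least among the subunits, 2.11-fold at D0 and 2.10-fold at D5 between its highest and lowest classes, and its highest 2 classes could not be separated by their intervals.

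Of the IkB family, Nfkbia was highest in Clec10a+ cDC2-like nuclei, with 3876 CPM at D0 (3792 to 3962) and 3806 at D5 (3764 to 3848), followed by Ccr7+ DC-like nuclei with 2054 and 1672, and lowest in pDC-like nuclei with 283 and 304 CPM. Barcodes of at most 50 UMIs, which hold free RNA, had 656 and 800 CPM of Nfkbia, above the pDC-like level. Nfkbid (IkBNS) and Nfkbie (IkBε) were also highest in Clec10a+ cDC2-like nuclei on both days. Nfkbiz, an atypical nuclear IkB, had its highest level in nonclassical monocyte-like nuclei at D0 (904 CPM) and in Clec10a+ cDC2-like nuclei at D5 (728 CPM). Bcl3, a nuclear IkB that binds p50 and p52, was highest in preDC-like nuclei with 143 and 144 CPM.

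Tnip3, which encodes an A20-binding protein, had the widest range of the members that were detected in every class on both days. It had 2767 CPM at D0 (2696 to 2840) and 1476 at D5 (1450 to 1503) in Clec10a+ cDC2-like nuclei and 19.4 and 22.7 CPM in pDC-like nuclei, 143-fold and 65.1-fold apart. Tnfaip3 itself was high in NK cell-like nuclei with 752 and 662 CPM, in Clec10a+ cDC2-like nuclei with 736 and 476 CPM and in T cell-like nuclei with 601 and 380 CPM, and the intervals of the first pair overlapped at D0 but not at D5. Its lowest class was cDC1-like on both days, with 92.2 and 48.7 CPM, below the 276 and 130 CPM in free RNA. Cyld, a deubiquitinase, was highest in cDC1-like nuclei (284 and 275 CPM) and spread 1.61-fold at D0 and 2.37-fold at D5 among the named classes. In clusters that were not named it reached 782 and 596 CPM (cluster 13) and 461 and 409 CPM (cluster 3).

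Of the 6 TRAF and IAP members, 4 were highest in Ccr7+ DC-like nuclei on both days. Birc2, which encodes cIAP1, had 702 CPM there at D0 (641 to 767) and 482 at D5 (458 to 507), and the next class had 152 CPM (Clec10a+ cDC2-like) and 157 CPM (NK cell-like). Traf1 had 1153 and 925 CPM, Traf3 395 and 250 CPM and Traf6 263 and 192 CPM in the same class. Birc3 was highest in Clec10a+ cDC2-like nuclei at D0 (518 CPM) and in Ccr7+ DC-like nuclei at D5 (366 CPM). Traf2 was highest in Ccr7+ DC-like nuclei at D0 (39.2 CPM) and in NK cell-like nuclei at D5 (41.1 CPM), and on neither day did the interval of the highest class lie above that of the next.

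Kinases showed other patterns. Map3k14 (NIK) was highest in Ccr7+ DC-like nuclei with 685 CPM at D0 and 857 at D5, and Ripk2, the kinase downstream of NOD receptors, in nonclassical monocyte-like nuclei with 319 CPM at D0 (239 to 418) and 188 at D5 (149 to 235). Ikbke was highest in lymphoid nuclei, with 26.6 and 41.1 CPM in NK cell-like and 21.9 and 28.4 CPM in T cell-like nuclei, followed by 8.92 and 13.8 CPM in macrophage-like nuclei. In cDC1-like nuclei it had 4 UMIs at D0 and 0 at D5, and by the limit of 3 UMIs a count of 0 there allows up to 0.339 CPM. Tbk1 was highest in pDC-like nuclei (173 and 147 CPM). In the MyD88 and IRAK group, Irak3, which encodes the inhibitory IRAK-M, was highest in nonclassical monocyte-like nuclei, with 96.4 CPM at D0 (16 UMIs) and 120 at D5 (49 UMIs). Myd88, in contrast, was lowest in Ccr7+ DC-like nuclei on both days with 11.6 and 25.3 CPM. Card9, the adaptor of C-type lectin receptors, was highest in preDC-like nuclei (32.3 and 28.3 CPM) and had 0 UMIs in T cell-like nuclei at D0 and 1 at D5. The survival gene Bcl2a1b was highest in Ccr7+ DC-like nuclei (1221 and 1067 CPM), but it has near-identical copies among which reads may be split, and its values are uncertain.

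Mir155hg had its highest levels in Ccr7+ DC-like nuclei, 215 CPM at D0 (181 to 252) and 94.97 at D5 (84.3 to 107), and in Clec10a+ cDC2-like nuclei, 167 and 90.6 CPM, and the intervals of these 2 classes overlapped at D0 and at D5. The mature miRNA is not measured in these libraries. Its sequence from RefSeq (GRCm38.p6, chr16:84714143-84714165, plus strand), with the seed of bases 2 to 8 in capitals, is given because the host transcript was among the genes that differed most between states and days.
mmu-miR-155-5p: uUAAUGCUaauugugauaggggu

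**Figure D2:**
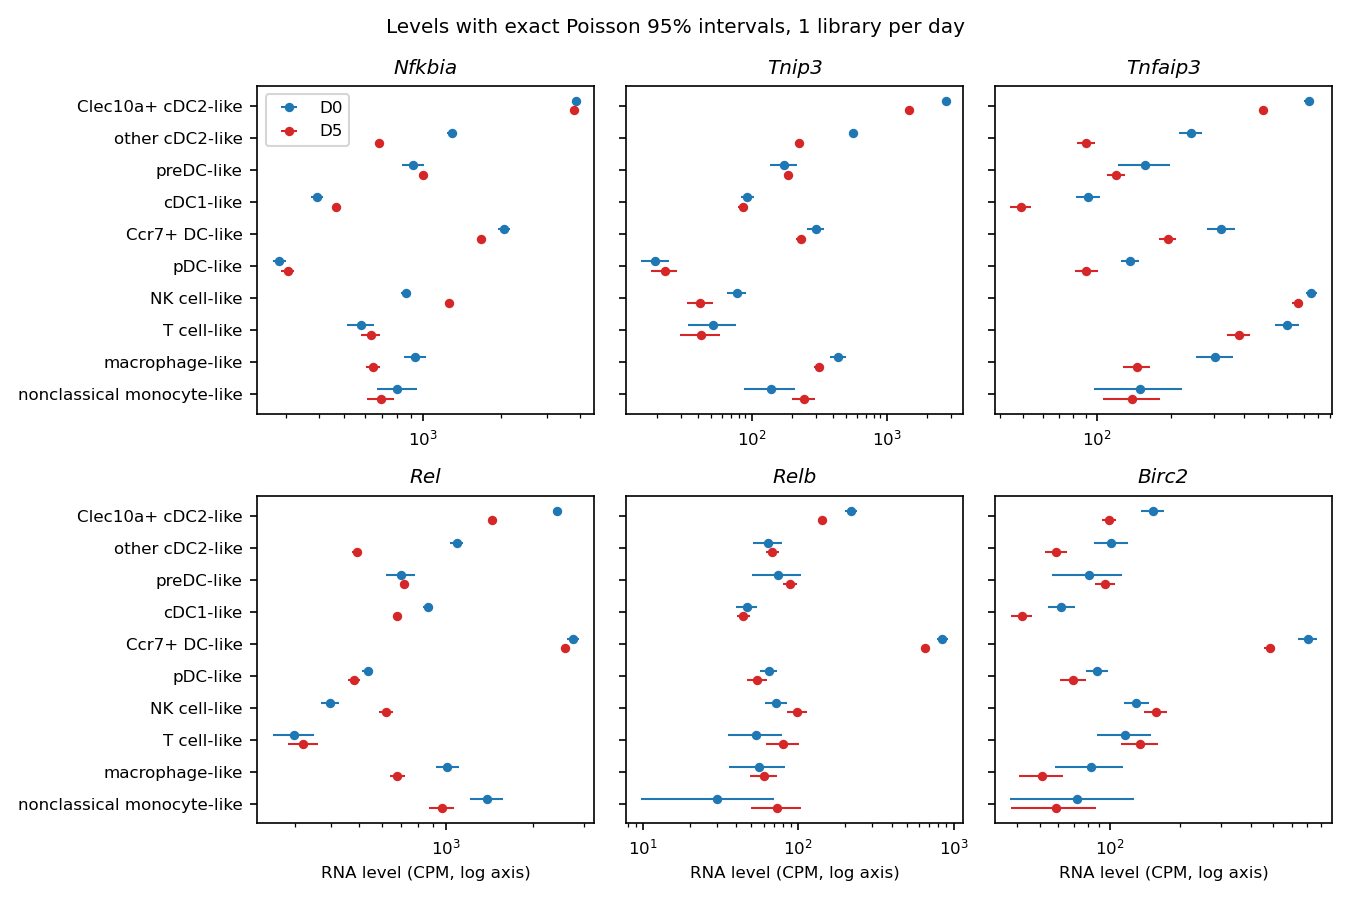
Levels (CPM, log axis) of key members in each class at D0 and D5, with bars for 95% counting intervals. Tnip3 and Nfkbia peak in Clec10a+ cDC2-like nuclei, and Relb and Birc2 in Ccr7+ DC-like nuclei.

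The second question was how the members differ between precursor-like and Clec10a+ cDC2, which are both present in each library, so that the comparison does not cross libraries. A gene was counted as higher or lower when the ratio passed 1.5-fold, the counting interval of its log2 ratio excluded 0 and both groups together held at least 20 UMIs. At D5, 39 members passed the minimum, all but Ikbke, and 19 were lower in preDC-like than in Clec10a+ cDC2-like nuclei and 2 were higher. Of the 11516 genes that passed, 7.22% were lower and 27.2% higher. The median log2 ratio of the members was -0.48 (-0.60 to -0.35 from the limits of the single genes), against 0.31 over all genes. The groups had been formed by clustering RNA of the same nuclei, so these differences are a description.

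The feedback genes Tnip3, Tnfaip3 and Nfkbia were lower in the preDC-like group on both days. At D5, Tnip3 reached 185 CPM in the preDC-like and 1476 CPM in the Clec10a+ group, a 7.99-fold difference (log2 interval -3.10 to -2.90). At D0 it had 173 and 2767 CPM, a 16.0-fold difference (log2 interval -4.35 to -3.67). Tnfaip3 had 119 and 476 CPM at D5 (log2 ratio -2.00, interval -2.13 to -1.86) and 157 and 736 CPM at D0 (-2.23), and its level in preDC-like nuclei was below that in free RNA on both days. Nfkbia had 1003 and 3806 CPM at D5 (-1.92, interval -1.97 to -1.88) and 919 and 3876 CPM at D0 (-2.08). All 3 genes thus differed by more than 3-fold from the Clec10a+ group in the same direction in both libraries. The other cDC2-like group was not part of this comparison. In it Tnfaip3 had 242 CPM at D0 and 90.1 at D5. Rel had 1086 and 491 CPM there, against 697 and 715 in preDC-like nuclei. Tnfaip3, Nfkbia and Rel were above the preDC-like level at D0 and below it at D5, while Tnip3 was above it on both days.

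In the IkB family, 5 of 6 members were lower at D5, with log2 ratios of -1.51 for Nfkbiz, -1.23 for Nfkbid, -0.97 for Nfkbib and -0.80 for Nfkbie besides Nfkbia, whereas Bcl3 had 0.30 and was not counted. Of the 5 ubiquitin editing genes 3 were lower, Tnip1 (-0.74) besides Tnip3 and Tnfaip3, whereas Tnip2 (0.36) and Cyld (-0.48) were not counted. Among the TRAF and IAP genes, Traf1 (-1.53), Traf6 (-0.72) and Birc3 (-0.67) were lower. Both survival genes were lower, Bcl2a1b by a log2 ratio of -1.57 and Cflar, which encodes the caspase-8 inhibitor cFLIP, by -1.29. The paracaspase gene Malt1 had -1.29, Irak3 -1.17, Irak2 -0.94 and Mir155hg -2.13.

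Subunits split into 2 kinds at D5 by total UMIs. At D5, Rel reached 715 CPM in the preDC-like and 1444 CPM in the Clec10a+ group, a log2 ratio of -1.01 (-1.07 to -0.96), and Relb 88.9 and 142 CPM, a ratio of -0.68 (-0.85 to -0.52). In contrast, Nfkb1 (-0.08), Nfkb2 (-0.03) and Rela (-0.09) were close to 0, with Nfkb1 at 1196 and 1266 CPM, while the median over all genes was 0.31. Free RNA had 61.5 CPM of Nfkb2 and 49.7 of Rela at D5, against 75.7 and 70.9 CPM in preDC-like nuclei. At D0, 3 of 5 subunits were lower in preDC-like nuclei, with Nfkb1 (-0.71, interval -0.86 to -0.56) besides Rel and Relb. With TMM factors, given below, Rela was counted as lower at D0 too.

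The 2 members that were higher in preDC-like nuclei were kinases. Ripk2 was 2.83-fold higher in CPM at D5 (log2 interval 1.27 to 1.74), with 378 of 4454597 UMIs in preDC-like and 252 of 8400694 in Clec10a+ cDC2-like nuclei. At D0 it had 64.6 against 40.1 CPM (0.69, interval 0.02 to 1.32). Map3k14 had 581 against 376 CPM at D5 (0.63, interval 0.55 to 0.70) but 358 against 529 CPM at D0 (-0.57, interval -0.82 to -0.32), so its ratio lay on opposite sides of 0 in the 2 libraries. With TMM factors, which scale the groups so that most genes do not differ (log2 factor 0.34 at D5 and 0.46 at D0), Map3k14 had 0.28 at D5 and was no longer counted as higher, nor was Ripk2 at D0, while the 19 lower members of each day were all still lower. None of the 7 kinases that passed the minimum was lower at D5.

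At D0, 19 members were lower and 1 was higher, where 8.92% and 24.5% of 8642 genes were. Of the lower members, 17 were the same on both days, while Irak2 and Irak3 passed the limits at D5 alone and Nfkb1 and Birc2 at D0 alone. The share of all genes lower on both days was not computed, and the classes came from clustering both libraries together. On the other day the log2 ratios were -0.55 for Irak2, -0.91 for Irak3 (from 3 UMIs in preDC-like nuclei), -0.08 for Nfkb1 and -0.06 for Birc2, and the difference between the days was not tested. The shares of nuclei with a UMI pointed the same way once each nucleus had been thinned to 1000 UMIs. With thinning, Tnip3 was found in 61.5% of Clec10a+ cDC2-like nuclei at D5 (59.7 to 63.3) and in 11.6% of preDC-like nuclei (10.1 to 13.2), against 1.94% of pDC-like nuclei, which had the lowest level. Without thinning these shares were 82.1%, 21.4% and 3.88%, with medians of 2763, 2446 and 1733 UMIs per nucleus. Nfkbia was found in 92.6% and 47.3% after thinning, against 26.1% of pDC-like nuclei. In addition, 8 of 12 immediate early genes, which are known to rise during tissue dissociation, were lower in preDC-like than in Clec10a+ cDC2-like nuclei on both days (median log2 ratio -0.87 at D5), and their summed level at D5 was 5632 and 9849 CPM. Markers of other cells also differed between the 2 groups. The 10 pDC markers, of which Siglech and Tcf4 are also among the preDC markers, summed to 6368 CPM at D0 and 4021 at D5 in preDC-like nuclei and to 665 and 552 CPM in Clec10a+ cDC2-like nuclei, and the 7 classical monocyte markers, Ly6c2 among them, to 2696 and 2180 against 722 and 986 CPM. None of these markers was at 0 in either group, except for 2 monocyte markers in preDC-like nuclei at D0. The part of these differences in that of the members was not tested. Of 8 heat shock genes, 2 were higher and none was lower at D5.

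**Figure D3:**
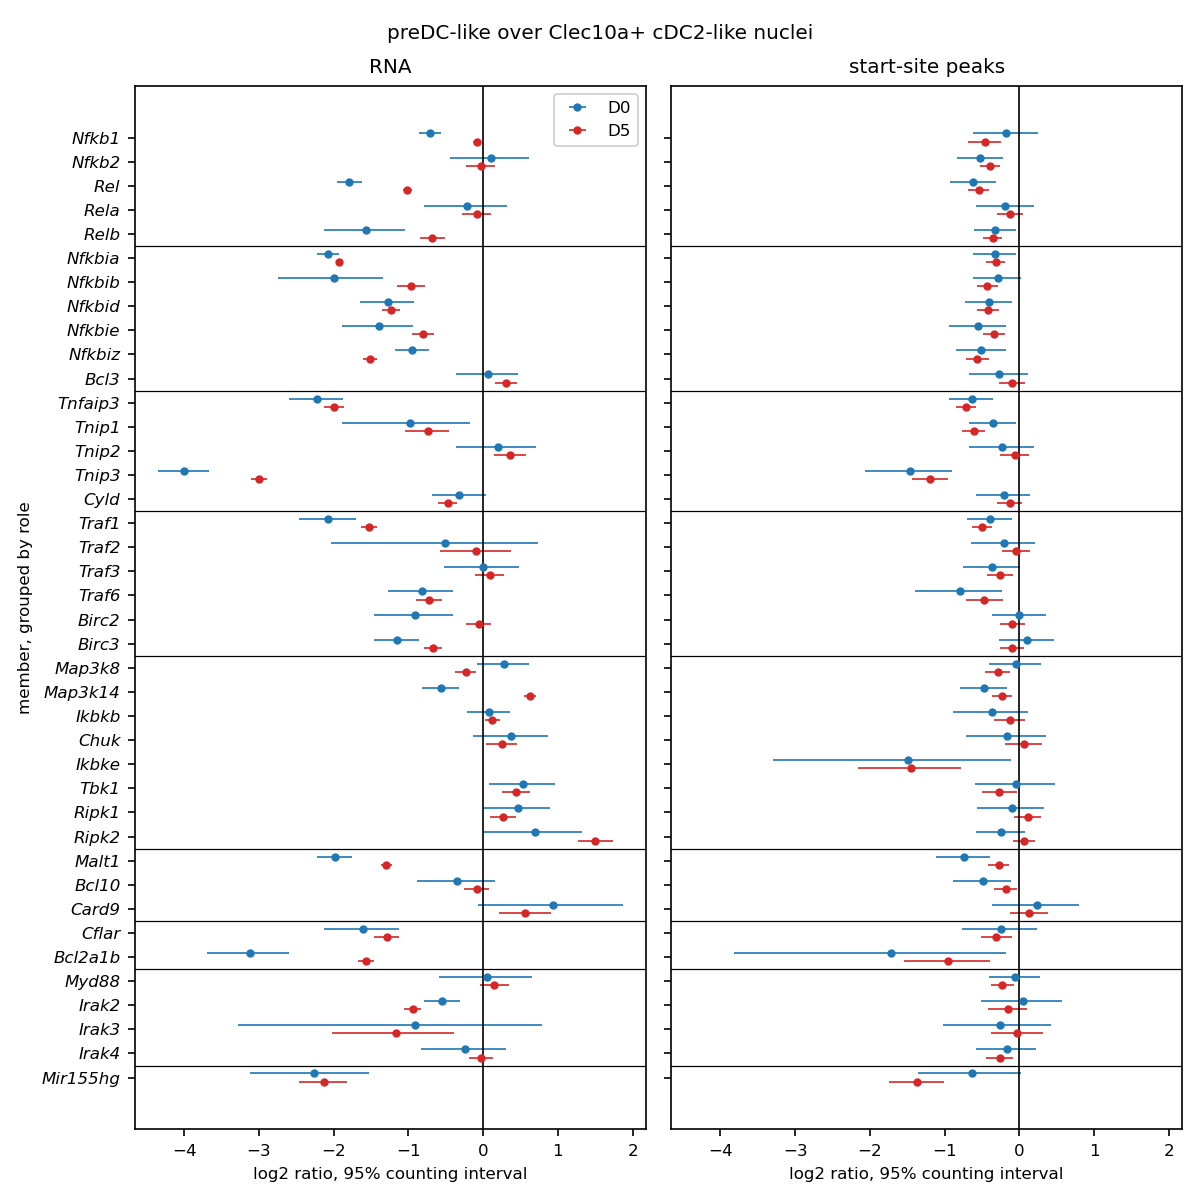
Log2 ratios of preDC-like over Clec10a+ cDC2-like nuclei for each member, grouped by role, in RNA and in fragments of start-site peaks, at D0 and D5, with 95% counting intervals. In RNA, Tnip3 lies lowest on both days and Ripk2 highest at D5, and 36 of the 40 accessibility points lie below 0 on each day.

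Open chromatin near the start sites of the members was compared in the same nuclei. Fragments were summed over the peaks that overlapped between the libraries and lay within 2 kb of either end of the interval of start sites of a gene. They were scaled to CPM over all peaks shared by the libraries. This interval spans 65085 bases for Tnip3 and 23747 for Nfkb1, so their sums join distant windows and leave out start sites in between. At D5, 36 of 40 members had a lower value in preDC-like than in Clec10a+ cDC2-like nuclei, with a median log2 ratio of -0.27 against -0.06 over all genes. Past 1.5-fold, 6 members were lower and none was higher, where 5.15% of 17278 genes were lower and 9.0% higher. They were Ikbke (-1.44), Mir155hg (-1.37), Tnip3 (-1.19), Bcl2a1b (-0.95), Tnfaip3 (-0.71) and Tnip1 (-0.61). At D0, 36 of 40 members were again below 0 and 7 were lower past 1.5-fold (Rel, Tnfaip3, Tnip3, Traf6, Ikbke, Malt1, Bcl2a1b), against 7.84% of 15619 genes. All 19 members with lower RNA at D5 had a ratio below 0 in accessibility too, for 16 of them the interval excluded 0, and 5 were lower past 1.5-fold in both layers. Of the 788 genes with lower RNA there, 85.7% were below 0 in accessibility, 59.6% with the interval clear of 0, and 30.5% were lower past 1.5-fold.

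The sizes differed between the layers. The start-site accessibility of Tnip3 was 27.7 CPM in the preDC-like and 76.0 CPM in the Clec10a+ group at D0, and at D5 it rested on 182 and 623.5 fragments, a log2 ratio of -1.19 (-1.44 to -0.95). Its peak at chr6:65589903-65590781 (mm10), which holds the Tnip3 sequence printed above, had 119.5 fragments in preDC-like and 416.5 in Clec10a+ cDC2-like nuclei at D5. Tnfaip3 had 110 and 180 CPM at D5. Nfkbia, with its 3.79-fold difference in RNA, had 125 and 155 CPM, a log2 ratio of -0.32 (-0.45 to -0.19). Ripk2, which was higher in RNA, had a log2 ratio of 0.07 (-0.08 to 0.21).

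The 12 members with the kappaB consensus in a promoter had a median RNA log2 ratio of -0.77 in preDC-like over Clec10a+ cDC2-like nuclei at D5, and the other members with a promoter in the table -0.09. At D0 the medians were -1.13 and -0.56. In accessibility they were -0.37 and -0.23 at D5. These are medians of small groups and were not compared by a test. In the cDC2-like pool between the days, members with the consensus had a median of -0.36 and those without -0.41. In Ccr7+ DC-like over cDC2-like nuclei, the comparison given next, the medians were 0.01 and 0.54 at D5 and 0.02 and 0.46 at D0.

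Mature Ccr7+ DC-like nuclei were then compared with the cDC2-like pool of the same library. In the draining lymph nodes, the study found both Cd11b+/Mgl2+ and Xcr1+ cells among Ccr7-high dendritic cells. The class here may therefore also hold nuclei from cDC1, and its ratios to cDC1-like nuclei were not computed. At D5, 15 members were higher and 4 lower, where 13.1% and 16.6% of 12670 genes were. Relb, Birc2 and Traf3, which act in the noncanonical arm or restrain it, had the largest ratios. Relb had 658 CPM in Ccr7+ DC-like and 107 CPM in cDC2-like nuclei at D5 (log2 ratio 2.62, interval 2.53 to 2.71) and 847 and 147 CPM at D0 (2.52, interval 2.36 to 2.69). Birc2 had 482 and 85.6 CPM at D5 (2.49, interval 2.39 to 2.60) and 702 and 126 CPM at D0 (2.48). Traf3, which restrains NIK, had a log2 ratio of 1.73 at D5 and 2.03 at D0, Map3k14 1.26 and 0.83, and Nfkb2 1.26 and 1.24.

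All 6 TRAF and IAP members were higher in Ccr7+ DC-like nuclei at D5, with log2 ratios of 1.34 for Traf1, 1.01 for Traf6, 0.89 for Traf2 and 0.78 for Birc3 besides Birc2 and Traf3. Further higher members were Bcl2a1b (1.62), Rel (1.41), Mir155hg (1.04), Cflar (0.73), Malt1 (0.73) and Nfkbib (0.66). Rel had 2582 CPM in Ccr7+ DC-like and 975 CPM in cDC2-like nuclei at D5, and 2746 and 1746 CPM at D0. Of the subunits, Nfkb1 (-0.49) and Rela (0.35) stayed within 1.5-fold while Rel, Relb and Nfkb2 were higher, and Nfkbia (-0.38) and Tnfaip3 (-0.48) stayed within it too.

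The 4 lower members were Tnip3, Myd88, Nfkbiz and Irak2. Tnip3 had 231 CPM in Ccr7+ DC-like and 780 CPM in cDC2-like nuclei at D5 (-1.75, interval -1.86 to -1.64). Myd88, the adaptor of Toll-like and IL-1 receptors, had 25.3 and 68.1 CPM (-1.43, interval -1.78 to -1.10) at D5, and at D0 it had 11.6 CPM from 8 UMIs against 58.8 CPM. Free RNA had 52.3 and 55.5 CPM of Myd88, above its level in Ccr7+ DC-like nuclei on both days. Nfkbiz had -0.84 and Irak2 -0.74. At D0, 12 members were higher and 7 lower, where 12.5% and 17.6% of 10309 genes were. The 12 higher ones were all among the 15 of D5, which added Nfkbib, Birc3 and Malt1, and the 4 lower ones of D5 were all lower at D0, where Nfkbid, Bcl3 and Tnfaip3 joined them. Here too the share of all genes counted on both days was not computed. Of the 12 immediate early genes, 8 were lower and 1 was higher in Ccr7+ DC-like nuclei at D5 (median -0.84, summed level 5588 against 8130 CPM), and 10 were lower and 1 was higher at D0 (median -1.21, 6109 against 10838 CPM). Their part in the differences of the members was not tested.

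Accessibility differed less in size than RNA. Of the 15 members with higher RNA at D5, 13 had a ratio above 0 in accessibility, with a median of 0.15. All 4 members with lower RNA were below 0, 1 of them with its interval clear of 0. Of all genes with higher RNA there, 75.5% were above 0, with a median of 0.16. Of those with lower RNA, 72.8% were below 0. At D0 the counts were 9 of 12 and 6 of 7, against 65.6% and 67.7% of all genes. At D5 the median log2 ratio of the members was 0.02, 2 members were higher past 1.5-fold (Traf6 with 0.62 and Bcl2a1b with 0.76) and none was lower, where 5.73% and 3.46% of 18077 genes were. At D0 the same 2 were higher and Ikbkb was lower (-0.63), where 3.99% and 3.15% of 16744 genes were. The start-site peaks of Relb had 172 CPM in Ccr7+ DC-like and 148 in cDC2-like nuclei at D5 (0.22, interval 0.09 to 0.35), and those of Birc2 91.1 and 84.1 (0.12, interval -0.06 to 0.29).

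**Figure D4:**
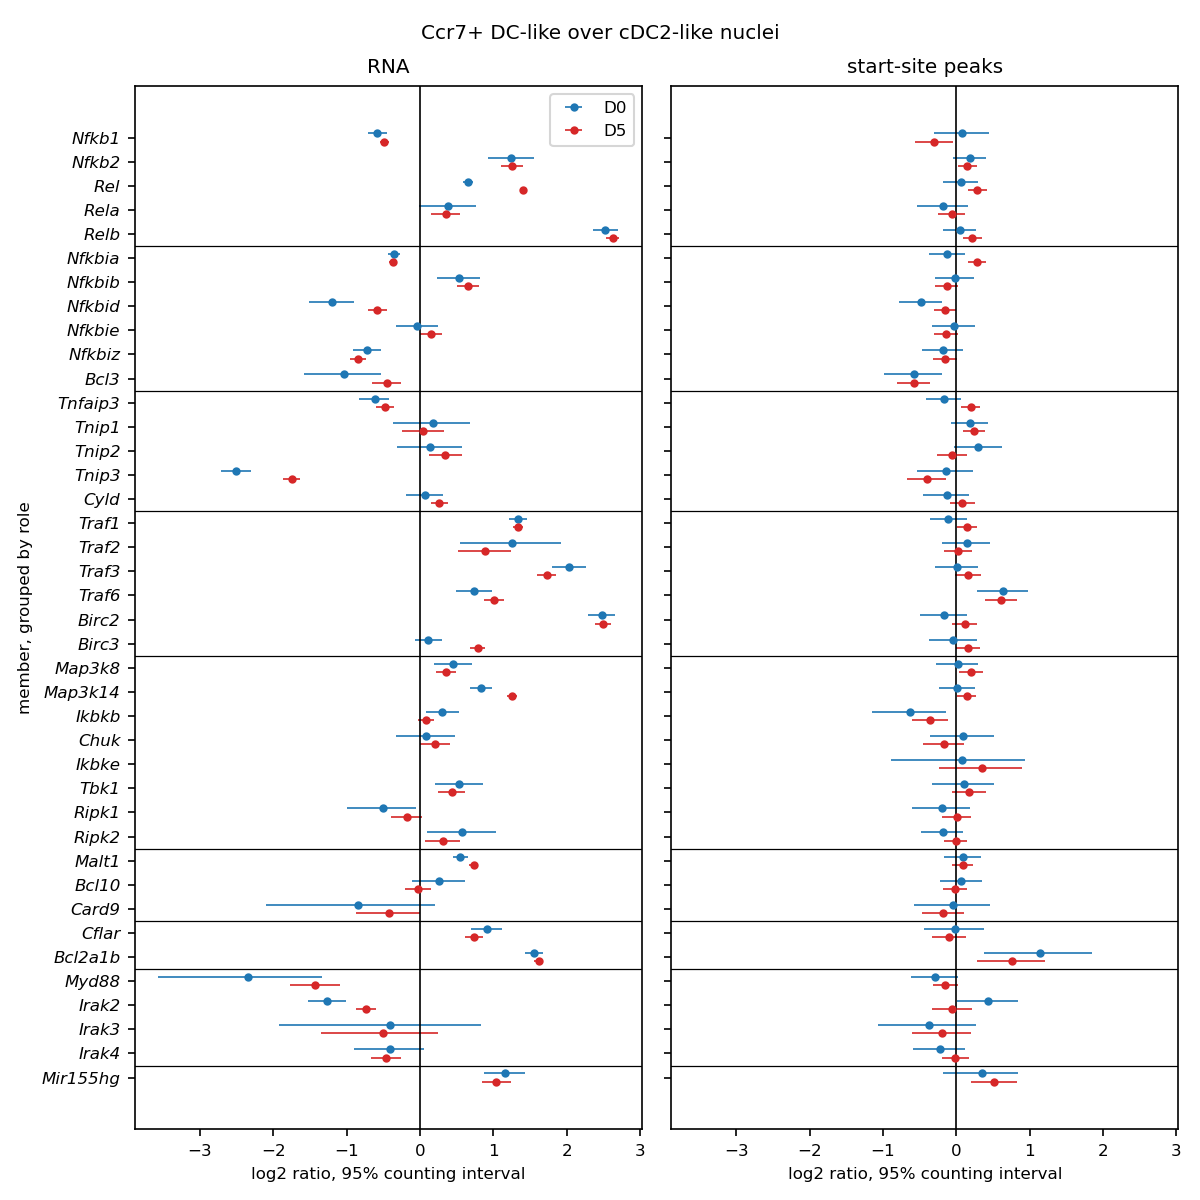
Log2 ratios of Ccr7+ DC-like over cDC2-like nuclei for each member, grouped by role, in RNA and in fragments of start-site peaks at D0 and D5, with 95% counting intervals. Relb and Birc2 lie highest and Tnip3 lowest in RNA at D5, and most accessibility points lie near 0.

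Finally, D5 was compared with D0 within each class. In cDC2-like nuclei, 9 of the 39 members that passed the minimum were lower at D5 and none was higher, where 13.5% and 3.24% of 12763 genes were. The median of the members was -0.36, that of all genes -0.13, and 34 members lay below 0. The medians of the limits of the single members were -0.52 and -0.21, which is not an interval of the median. Scaling by TMM factors instead of total UMIs, with a log2 factor of -0.23, brought the median of the members to -0.13 and the count of lower members to 6, without Traf6, Malt1 and Irak3. Shares of all genes counted as higher or lower belong to total UMIs throughout. They were not computed with TMM factors, so counts of members with TMM factors stand without such a background. Without the preDC-like nuclei the pool also had 9 lower members, with a median of -0.37.

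Tnip3 had 1694 CPM at D0 (1653 to 1735) and 780 at D5 (767 to 792) in cDC2-like nuclei, a log2 ratio of -1.12 (-1.16 to -1.08). Tnfaip3 had 495 CPM at D0 and 271 at D5 (-0.87, interval -0.94 to -0.79). Rel had 1746 CPM at D0 (1705 to 1788) and 975 at D5 (961 to 989), a log2 ratio of -0.84 (-0.88 to -0.80). Both feedback genes and c-Rel were thus lower at D5. The other lower members were Mir155hg (-1.06), Irak2 (-0.88), Birc3 (-0.86), Traf6 (-0.73), Malt1 (-0.68) and Irak3 (-0.63).

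The remaining subunits differed less. Relb had a log2 ratio of -0.46, Rela -0.20, Nfkb1 -0.15 (1192 CPM at D0 and 1072 at D5) and Nfkb2 -0.08. Nfkbia had 2628 CPM at D0 and 2169 at D5 (-0.28, interval -0.31 to -0.25). The 7 kinases that passed ranged from -0.46 (Tbk1) to 0.05 (Ikbkb), and none was counted. In the same nuclei, 6 of 8 heat shock genes were lower at D5 (median log2 ratio -1.41), their summed level being 4923 CPM at D0 and 2191 at D5, and 7 of 12 immediate early genes were lower (median -0.63, 10838 and 8130 CPM). Both lists were chosen after the data had been seen, they mark stress and handling of cells, and their part in the lower levels of the members was not tested.

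The states of cDC2 differed in their lists. Clec10a+ cDC2-like nuclei had 10 lower members and none higher, where 12.9% and 4.64% of 11081 genes were. They were Tnip3 (-0.91), Mir155hg (-0.88), Birc3 (-0.87), Rel (-0.74), Traf6 (-0.70), Irak2 (-0.69), Tnfaip3 (-0.63), Relb (-0.62), Birc2 (-0.62) and Malt1 (-0.60), while Nfkbia had -0.03. With TMM factors only Tnip3, Mir155hg and Birc3 of these 10 were still counted. In that group 3 of 12 immediate early genes were lower and 1 was higher, with a median of -0.05. In other cDC2-like nuclei 14 members were lower and 1, Bcl3 (0.66), was higher, where 12.4% and 3.63% of 10894 genes were, and with TMM factors 9 were lower and 2 higher. There Tnfaip3 had 242 CPM at D0 and 90.1 at D5 (-1.42, interval -1.62 to -1.22), both below its level in free RNA, Nfkbia 1296 and 682 CPM (-0.93, interval -1.01 to -0.85), and Nfkbiz 402 and 189 CPM (-1.09). The level of Nfkbia there was above that in free RNA at D0 and below it at D5. In the same group 9 of 12 immediate early genes and 7 of 8 heat shock genes were lower, and their part was not tested.

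preDC-like nuclei did not share the lower levels of Rel and Tnip3. They had 697 CPM of Rel at D0 and 715 at D5, and 173 and 185 CPM of Tnip3, and both pairs of intervals overlapped. The level of Tnip3 at D0 was little above that in free RNA, and the difference from the other states was not tested. Here 4 members were lower (Irak2 with -1.08, Nfkbiz with -0.71, Map3k8 with -0.61, Traf6 with -0.60) and 2 higher, where 10.6% and 3.39% of 10048 genes were. The higher ones were Map3k14, with 358 CPM at D0 (304 to 419) and 581 at D5 (558 to 603), a log2 ratio of 0.70 (0.46 to 0.94), and Bcl2a1b (1.35), whose 69.2 CPM at D0 rest on 30 UMIs and whose level in free RNA was 585 and 618 CPM. With TMM factors Irak2 was the 1 lower member and 6 were higher.

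**Figure D5:**
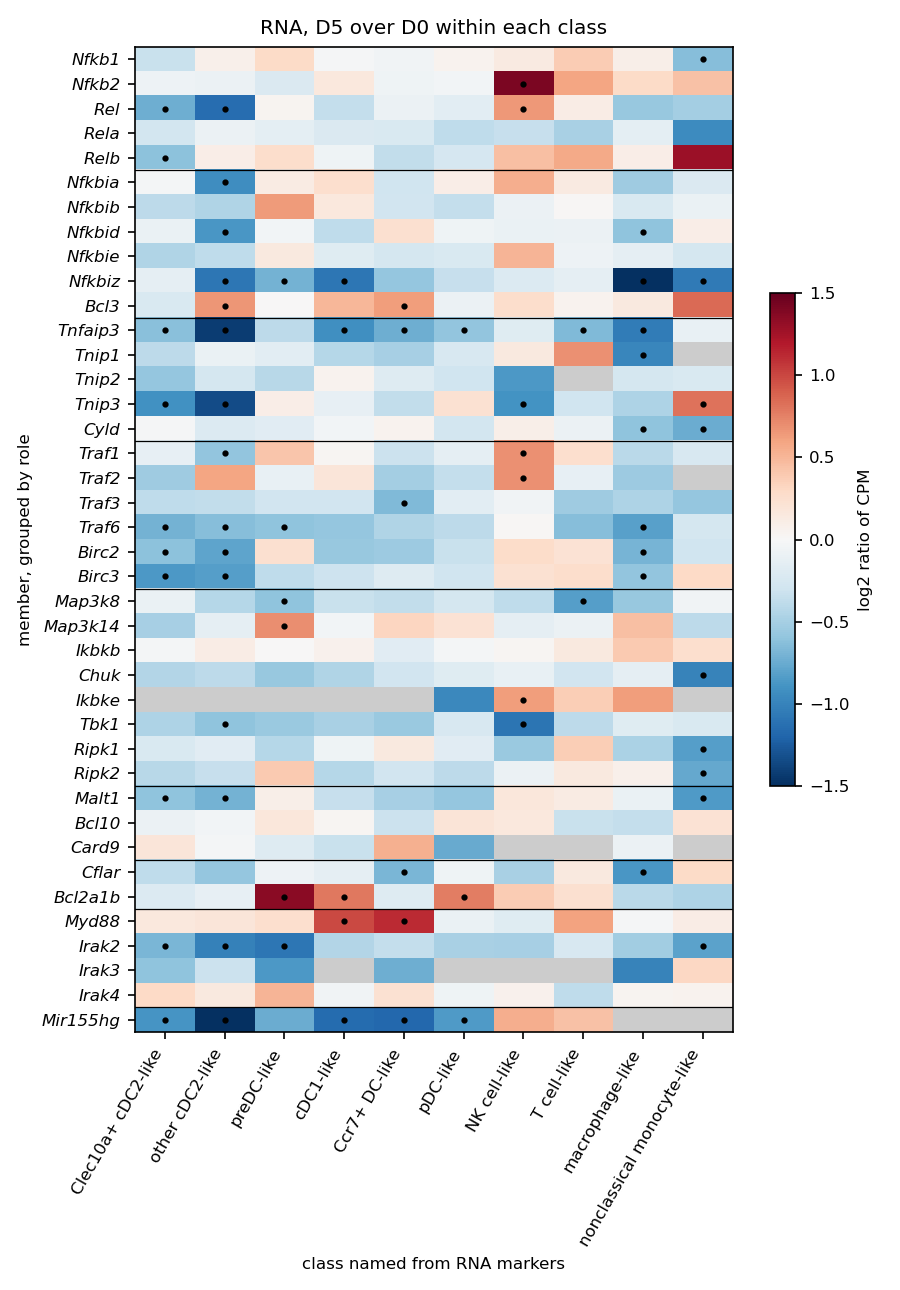
Log2 ratio of D5 over D0 for each member (rows) in each class (columns), with the colour scale limited at both ends, black dots where a member passed 1.5-fold with its interval clear of 0, and grey where it had under 20 UMIs. Tnfaip3 and Nfkbiz are below 0 in all 10 classes (in 8 each with TMM factors), and the NK cell-like column holds 5 members counted as higher, more than any other column.

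In cDC1-like nuclei, 3 members were lower and 2 higher, where 17.7% and 3.45% of 11662 genes were. Myd88 had 31.5 CPM at D0 and 62.5 at D5 (0.99, interval 0.69 to 1.30), against 52.3 and 55.5 CPM in free RNA, and Bcl2a1b 147 and 253 CPM (0.79). The lower ones were Mir155hg (-1.15), Nfkbiz (-1.08) and Tnfaip3 (-0.92, 92.2 CPM at D0 and 48.7 at D5). Mir155hg had 10.8 CPM at D0 and 4.85 at D5, below the 12.9 and 5.23 CPM in free RNA. The median of the members was -0.16, that of all genes -0.23, and with TMM factors the median of the members became 0.16, so no direction is given for the group as a whole. The subunits ranged within 1.5-fold in this class.

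In NK cell-like nuclei 5 members were higher and 2 lower, where 4.17% and 11.9% of 10108 genes were. With TMM factors, for which no share of all genes was computed, 9 were higher and 2 lower. Nfkb2 had 36.4 CPM at D0 and 96.9 at D5 (1.41, interval 1.02 to 1.83), against 58.0 and 61.5 CPM in free RNA, Traf1 213 and 343 CPM (0.69), Traf2 25.6 and 41.1 CPM (0.68), Rel 396 and 620 CPM (0.65, interval 0.52 to 0.78) and Ikbke 26.6 and 41.1 CPM (0.62). The lower ones were Tbk1, with 119 CPM at D0 and 55.9 at D5, and Tnip3, with 77.4 and 41.5 CPM, levels below the 144 and 109 CPM of Tnip3 in free RNA. Of the heat shock genes 6 of 8 and of the immediate early genes 5 of 12 were lower in these nuclei as well. In T cell-like nuclei 2 members were lower, Map3k8 (-0.83) and Tnfaip3 (-0.66), and none was higher, where 9.76% and 4.25% of 7665 genes were. With TMM factors Map3k8 was lower, and Relb and Tnip1 were higher. There 6 of 12 immediate early genes were lower (median -0.59).

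In macrophage-like nuclei 9 members were lower and none higher, where 14.6% and 5.75% of 8343 genes were, with Nfkbiz going from 544 to 181 CPM (-1.59, interval -1.83 to -1.34) and Tnfaip3 from 303 to 146 CPM (-1.05), and with TMM factors these 2 alone were lower and Map3k14 and Ikbkb were higher. There 6 of 12 immediate early genes were lower (median -0.47, summed level 11664 CPM at D0 and 8306 at D5). In nonclassical monocyte-like nuclei 8 were lower, led by Nfkbiz (-1.06), and 1 was higher, Tnip3, with 139 CPM at D0 from 23 UMIs and 244 at D5 from 100 UMIs (0.82, interval 0.15 to 1.54), where 9.52% and 5.48% of 4728 genes were, and with TMM factors 3 were lower and 2 higher. The level of Tnip3 there was below that in free RNA at D0 and above it at D5. Ccr7+ DC-like nuclei had 4 lower members (Mir155hg, Tnfaip3, Cflar, Traf3) and 2 higher (Myd88, Bcl3), where 9.42% and 5.8% of 9447 genes were, and with TMM factors Mir155hg alone was still lower. The pDC-like nuclei had 2 lower (Mir155hg, Tnfaip3) and 1 higher (Bcl2a1b), where 7.47% and 3.95% of 11195 genes were, and with TMM factors neither of the lower ones was counted. Mir155hg had 11.9 CPM at D0 and 6.63 at D5 in pDC-like nuclei, close to the 12.9 and 5.23 CPM in free RNA. Bcl2a1b, with 87.5 and 150 CPM in the same nuclei, was below its level in free RNA on both days.

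4 further clusters that could not be named from the markers were compared in the same way. Cluster 3 (288 nuclei at D0 and 2660 at D5, led by Il1r2, Dab2 and Ifitm1) had 8 members lower and 3 higher at D5, where 10.4% and 3.49% of 10702 genes were. Irak2 went from 541 to 260 CPM, Rel from 1577 to 1001 CPM and Tnip3 from 580 to 351 CPM, while Myd88 went from 27.8 to 57.9 CPM, close to its level in free RNA at D5. With TMM factors 2 were lower, Irak2 among them but neither Rel nor Tnip3, and 5 higher. Cluster 9 (102 and 799 nuclei, led by Ccl17, Clec4n and Lilr4b) had 6 members higher and 2 lower, where 3.12% and 10.9% of 8418 genes were. There Nfkbia went from 759 to 1254 CPM (0.73, interval 0.50 to 0.96) and Bcl2a1b from 254 to 611 CPM, close to its 585 and 618 CPM in free RNA at D5. With TMM factors, where the log2 factor of -0.34 raises every finite ratio, 11 were higher and 0 lower, and no share of all genes was computed. Those 11 leave out Mir155hg, which is among the 6. It had 0 UMIs at D0 and 82 at D5, so its ratio is not finite and was not rescaled. Cluster 13 (364 and 382 nuclei, led by Adgrl3, Frmd5 and Adam23) had 4 members lower (Tnip3, Traf3, Traf1, Irak2) and 1 higher (Bcl3), where 10.2% and 5.79% of 7582 genes were, and 2 lower and 2 higher with TMM factors. Cluster 20 (150 and 179 nuclei, led by the interferon-induced genes Cxcl10, Cxcl9 and Ifit3) had 11 members lower and 1, Ikbkb, higher, where 12.1% and 5.03% of 6025 genes were, and 7 lower and 3 higher with TMM factors. In it Birc3 went from 453 to 183 CPM (-1.30, interval -1.67 to -0.94) and Tnip3 from 863 to 445 CPM, and Rel, Rela and Relb were among the lower ones, of which TMM factors left Rela and Relb. Rela rests on 31 UMIs at D0 and 24 at D5 there, and its 41.9 CPM at D5 lay below the 49.7 CPM in free RNA.

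Across the 10 classes, 8 of the 40 members were below 0 in every class (in 6 to 10 classes with TMM factors), namely Tnfaip3, Nfkbiz, Irak2, Rela, Traf3, Map3k8, Chuk and Tbk1. Of the 33 members that passed the minimum in all 10 classes these 8 are 24.2%, against 14.0% of 4421 genes, and with TMM factors Irak2 alone was below 0 in each class, 3.03% against 2.92%. Tnfaip3 was below 0 in 10 and was counted as lower in 7, and Nfkbiz was below 0 in 10 and counted in 5, while the others but Irak2 were counted in at most 2. With TMM factors Tnfaip3 and Nfkbiz were below 0 in 8 classes each, and Tnfaip3 was no longer counted in Clec10a+ cDC2-like, Ccr7+ DC-like, pDC-like and T cell-like nuclei. In free RNA Tnfaip3 had 276 CPM at D0 and 130 at D5. Irak2 was below 0 in 10 classes under both scalings and counted in 4. Nfkb1, Nfkbia and Ikbkb, in contrast, lay on both sides of 0. The classes of a day come from 1 library, so these counts are not independent of each other. Of the 8 heat shock genes, 5 to 7 were lower in each of the 10 classes and none was higher, with medians between -0.90 and -2.02.

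Accessibility at the start sites did not differ between the days in the cDC2-like pool beyond the 1.5-fold limit for any of the 40 members, where 0.803% of 18300 genes were higher and 4.11% lower. The median was 0.05 (-0.10 to 0.18 from the limits of the single genes, not an interval of the median). Of the 9 members with lower RNA, 6 had a ratio below 0 in accessibility and for 3 of them the interval excluded 0. In Clec10a+ cDC2-like nuclei, of the 10 members with lower RNA 3 had a ratio below 0 in accessibility, none with its interval clear of 0, and their median was 0.07. Over all genes with lower RNA, 59.8% were below 0 in the pool and 17.1% had the interval clear of it, against 54.9% and 10.8% in Clec10a+ cDC2-like nuclei. In the pool, Tnip3 had 59.7 CPM at D0 (54.3 to 65.4) and 49.6 at D5 (46.7 to 52.7), Rel 135 and 130, Tnfaip3 153 and 147, and Nfkbia 135 and 141. No member passed the 1.5-fold limit in Clec10a+ cDC2-like nuclei, where 0.741% of genes were higher and 3.76% lower, nor in Ccr7+ DC-like (1.32% and 2.22%), NK cell-like (1.56% and 1.81%), T cell-like (1.19% and 1.66%), macrophage-like (1.84% and 2.09%) or nonclassical monocyte-like nuclei (2.13% and 1.76%). In the other classes 4 members passed the limit, each in 1 class. They were Mir155hg, lower in other cDC2-like nuclei (-0.85, where 2.43% of 16208 genes were lower and 0.635% higher), Malt1, higher in preDC-like nuclei (0.66, where 1.93% of 16325 genes were higher and 2.53% lower), Bcl2a1b, higher in cDC1-like nuclei (0.95, where 0.392% of 17875 genes were higher and 2.69% lower), and Tnip3, lower in pDC-like nuclei (-0.84, where 2.58% of 17735 genes were lower and 0.237% higher). Of these, Bcl2a1b in cDC1-like nuclei and Mir155hg in other cDC2-like nuclei passed 1.5-fold in the same direction in RNA too. The RNA of Mir155hg there rests on 15 UMIs at D0 and 7 at D5. Its 10.8 and 1.22 CPM lie below the 12.9 and 5.23 CPM in free RNA. Bcl2a1b, with 147 and 253 CPM in cDC1-like nuclei, was also below its level in free RNA on both days.

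The highest class in accessibility was the same on both days for 21 of 40 members, and it was the highest class in RNA for 8 members at D0 and 7 at D5. Of 9452 genes with at least 100 fragments and 100 UMIs on each day, 39 members among them, these shares were 40.6%, 21.3% and 22.9%. Between its highest class, Clec10a+ cDC2-like, and its lowest, pDC-like, Tnip3 spread 8.97-fold at D0 and 14.4-fold at D5. Mir155hg, highest in NK cell-like and lowest in nonclassical monocyte-like nuclei, spread 16.3-fold and 7.84-fold, and Card9 11.2-fold and 17.1-fold. The lowest values of Mir155hg were 2.46 and 4.87 CPM, in a class of 406917.5 and 616450.5 fragments, and those of Card9 4.37 and 2.95 CPM. These rest on very few fragments, so the folds of both genes are uncertain.

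Other genes of the pathway, in lists chosen like the members with earlier results known, were counted for the same comparisons. In cDC2-like nuclei between the days, where 13.5% of all genes were lower and 3.24% higher with a median of -0.13, 2 of 26 further components were lower, among them Tank (482 CPM at D0 and 235 at D5, log2 ratio -1.03), a TRAF-binding adaptor of TBK1, and none was higher. Of 17 measured receptors 7 were lower, led by Nod2 (-1.11), and of 23 target genes 9 were lower, with a median of -0.58, and no gene of these 2 lists was higher.

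In preDC-like over Clec10a+ cDC2-like nuclei at D5, 16 of the 22 target genes that passed were lower and none was higher, with a median of -1.34 against 0.31 over all genes. Il1b, the gene of IL-1β, had 710 and 3968 CPM (-2.48), Ptgs2, which encodes COX-2, 51.2 and 298 CPM (-2.54), Cxcl2 9.88 and 59.5 CPM (-2.59) and Ccl22 22.0 and 155 CPM (-2.82). At D0, 18 of 22 target genes were lower and none was higher, where 8.92% and 24.5% of all genes were. Of the 25 further components that passed at D5, 7 were higher and 1 was lower, where 27.2% and 7.22% of all genes were. The lower one was Tank with 114 and 351 CPM (-1.62), and among the higher ones were Traf4 (1.42) and Peli2 (1.30). Receptors split, with Nod2 at 7.41 and 57.0 CPM (-2.94) and Il1r1 at 12.6 and 1.31 CPM (3.26).

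In Ccr7+ DC-like over cDC2-like nuclei at D5, 8 of 23 target genes were higher and 5 lower, with a median of -0.10, where 13.1% and 16.6% of all genes were, with a median of -0.10. Ccr7 and Ccl22 are on the target list and are also markers by which the class was named. Il12b, the p40 subunit of IL-12 and IL-23, had 643 and 4.24 CPM (7.24), while cDC1-like nuclei had 31.1 CPM of it at D5. Among receptors, Tnfrsf11a, which encodes RANK, had 148 and 21.8 CPM (2.76), and Tlr4 had 1.64 and 7.52 CPM (-2.19).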

How the data were processed

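Nuclei of 2 libraries (D0 and D5) were measured for RNA and open chromatin. The deposited matrices held raw counts that the authors made with Cell Ranger ARC 2.0.2 on mm10, per the submitters' processing notes: UMIs per gene and, per library, cut sites in peaks called in that library alone. Fragments are these peak counts divided by 2. The D5 peak matrix was joined to RNA by identical gene counts (27873 of 27873 barcodes), since its barcodes were not used here.

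Barcodes below 1000 UMIs or above 10% mitochondrial UMIs were dropped. Doublet scores were computed with the Scrublet method in scanpy 1.11.5, and nuclei at 0.2 or higher were removed, a threshold set after the scores had been seen (23.1% at D0 and 25.5% at D5). This left 10982 and 19832 nuclei. The thresholds that the method set by itself would have called 42.0% of nuclei at D0 and 9.99% at D5. Clusters 14 (NK and ILC1 with cDC1 markers, 607 nuclei at D0 and 130 at D5), 21 (cDC1 with pDC, 229 and 91) and 23 (pDC with T cell, 200 and 27) stayed unnamed and outside the classes. Cluster 15 (cDC1 with cycling markers, 196 and 303) did too. How many doublets remained in the classes of each day was not tested. Both libraries were clustered together (2000 variable genes without the listed genes, 30 components, 15 neighbours, Leiden resolution 1.0), and clusters were named from at least 3 markers raised at least 2-fold, at least 1 of them among the 10 leading genes, where no other class came close, and as preDC where no class reached 3. The T cell list and the NK and ILC1 list were exempt and did not count against each other. The T cell-like cluster raised 7 of 8 NK and ILC1 markers besides all 10 T cell markers. Cluster 13 stayed unnamed because none of its 5 cDC2 markers was among those 10. UMIs were summed per class and library and given as CPM with exact Poisson intervals, and ratios with exact conditional intervals (scipy 1.17.1). Of the peaks, the 127216 shared regions were used. With 1 library per day no test was possible. The ratio code was tested on simulated data.

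All 40 members were counted by role, and those named with values were the ones past the limits, up to 25 by size, plus the 5 subunits, Nfkbia and Tnfaip3, and at most 4 genes of each further list. The members and lists were chosen with earlier results of these data known. The lists of immediate early and heat shock genes, and the kappaB search, were added after the data had been seen. A window around a start site may also hold the start of a neighbouring gene. Clec7a, on the receptor list, was not measured. A gene of a further list was counted but is not reported here by name.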

Additional observations from a re-analysis of the deposited data

Results flagged for a closer look

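The change from D0 to D5 had opposite directions in different classes for 3 members, with both directions past 1.5-fold and both counting intervals clear of 0. The differences between the classes were not tested, because each class has 1 library per day. With TMM factors the signs stayed the same, but Rel in Clec10a+ cDC2-like nuclei (-0.51) and Traf1 in other cDC2-like nuclei (-0.37) no longer passed 1.5-fold, which leaves Traf1 with no such pair.

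Rel was higher at D5 in NK cell-like nuclei (log2 ratio 0.65) and lower in Clec10a+ cDC2-like nuclei (-0.74), a difference of 1.38, and in other cDC2-like nuclei (-1.14), a difference of 1.79. Traf1 was higher in NK cell-like nuclei (0.69) and lower in other cDC2-like nuclei (-0.60), a difference of 1.29.

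Tnip3 was higher in nonclassical monocyte-like nuclei (0.82, from 23 UMIs at D0 and 100 at D5) and lower in Clec10a+ cDC2-like nuclei (-0.91), a difference of 1.73, in other cDC2-like nuclei (-1.34), a difference of 2.16, and in NK cell-like nuclei (-0.90), a difference of 1.72. In NK cell-like nuclei its level was below that of free RNA on both days, and in nonclassical monocyte-like nuclei it was below it at D0 and above it at D5.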

How the results depend on the processing

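No paired analysis was possible because each day is 1 library. Of 74 values computed under other settings, 62 stayed within the limits set for them, 11 moved and 1 reversed, and the cause was not tested except where the setting itself gives it. TMM factors brought the median of the members in cDC2-like nuclei, D5 over D0, to -0.13, reversed that in cDC1-like nuclei to 0.16, and moved that of preDC-like over Clec10a+ cDC2-like nuclei at D5 to -0.82, where 1 member was then higher. Calls with TMM factors in the other classes and at D0, added after the data had been seen, stand beside the main ones, without a share of all genes under that scaling. The last median was -0.33 without removal of doublets, with 1 higher member, and -0.62 with nuclei thinned to 1000 UMIs. A limit of 2-fold by its construction left 2 lower members in cDC2-like nuclei, 0 higher ones in cDC1-like nuclei, and 12 lower and 1 higher in the comparison of states. Thinning gave 5 lower members in cDC1-like nuclei. The medians in accessibility ranged from 0.03 to 0.14 between the days and from -0.26 to -0.40 between the states. With 2 libraries, neither depth nor nuclei can stand in for replicates. Ikbke had too few UMIs in conventional dendritic cells for a statement there.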
